A study of Homo sapiens with 4 samples.

Results

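The ETS family transcription factors are described here by 10 genes of one DNA-binding family, *ETS1*, *ETS2*, *ETV1*, *ETV4*, *ETV5*, *ETV6*, *ERG*, *FLI1*, *ELK3*, and *ERF*. The rule names them as family members and uses no measured value, although earlier results of these data were known, and all 10 were found among the 18449 gene symbols of the count table. *ETS1* is the factor to which the study attached therapy resistance, so its place among its paralogs was of interest. BT-16 and CHLA-266 are established cell lines of atypical teratoid/rhabdoid tumors of the MYC subgroup (AT/RT-MYC). Each line gave 1 untreated library and 1 library after 1 µM doxorubicin (doxo), 5 µM etoposide (eto), and 1 µM vincristine (vin) on consecutive days, with regrowth for several weeks. Doxo and eto poison topoisomerase II, and vin blocks microtubule assembly. Both conditions shared the culture medium and the batch label. According to the methods, most cells died after treatment, so a treated library holds cells that survived and grew again, and induced and selected expression cannot be told apart. With 2 libraries per condition, the cell lines served as replicates, and *p* values measure the spread between these libraries only.

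All ETS proteins share the ETS domain, which binds DNA around a GGAA core, and they differ in the partners and signals that control them. *ETS1* and *ETS2* are close paralogs that are switched on by ERK phosphorylation. *ETV1*, *ETV4*, and *ETV5* form the PEA3 group, activators at the end of the ERK cascade that the repressor CIC holds down. *ERG* and *FLI1* are best known for their role in endothelial and blood cells, and for their fusions in prostate cancer and Ewing sarcoma. *ETV6*, *ERF*, and *ELK3* act mainly as repressors, and ERK moves ERF out of the nucleus and turns ELK3 toward activation.

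The libraries held 75087193 counts (BT-16) and 66192504 counts (CHLA-266) before treatment and 51489712 and 49849257 counts after it. Low-level signal differed by condition, and this touches every gene with few counts. The 380 olfactory receptor (OR) genes in the table, which such cells should not use, summed to 490 before and 5436 after treatment in BT-16, and to 515 and 3577 counts in CHLA-266. After scaling to library size (CPM, with TMM factors), this was a 13.2-fold and an 8.23-fold higher OR signal after treatment. Of the genes that mark the tumor type, *SMARCB1*, which AT/RT typically lose, still had 827 to 1394 counts and stood at 0.963 to 1.29 CPM per kb of exon, against 32.7 to 58.0 for *SMARCA4*, another subunit of the same complex. As the 4 libraries share this, it does not check the labels of line or treatment.

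Expression of the 10 genes fell into distinct tiers when levels were divided by exon length. Over the 4 libraries, *ETV5* had a mean level of 34.3 CPM per kb (range 24.4 to 42.9) and *ETV4* one of 31.6 (22.0 to 41.4), and their ranges overlapped. *ETV1* (17.1, range 13.2 to 20.8), *ERF* (15.9, 10.0 to 21.2), and *ELK3* (13.4, 11.1 to 14.8) followed, again with overlapping ranges. *ETV6* had 3.94 CPM per kb (3.56 to 4.36), separate from its neighbors on both sides. *ETS2* had 0.724 CPM per kb (0.652 to 0.772), which was low but separate from the genes below it. *ETS1* came eighth, with a mean of 0.117 CPM per kb (0.0243 to 0.230), and overlapped with *FLI1* (0.0699, 0 to 0.244) and *ERG* (0.0377, 0 to 0.139).

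The 7 genes from *ETV5* down to *ETS2* lay above the 95th percentile of the OR genes in all 4 libraries. *ETS1*, *FLI1*, and *ERG* lay below it in all 4. This percentile was 0.0595 and 0.0618 CPM per kb in untreated and 0.455 and 0.409 in treated BT-16 and CHLA-266 cells. The same 7 genes were above and the same 3 below when taste receptors, keratin-associated proteins, beta-defensins, late cornified envelope proteins, and vomeronasal receptors were added to the reference. Among all 27 measured genes of the ETS family, the 10 genes carried 71.2% to 72.5% of the summed level per kb. *ETS1* carried 0.0133% and 0.134% of it in BT-16 before and after treatment and 0.0241% and 0.120% in CHLA-266, and its rank of 21 in BT-16 and 16 in CHLA-266 was the same before and after treatment.

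**Figure D1:**
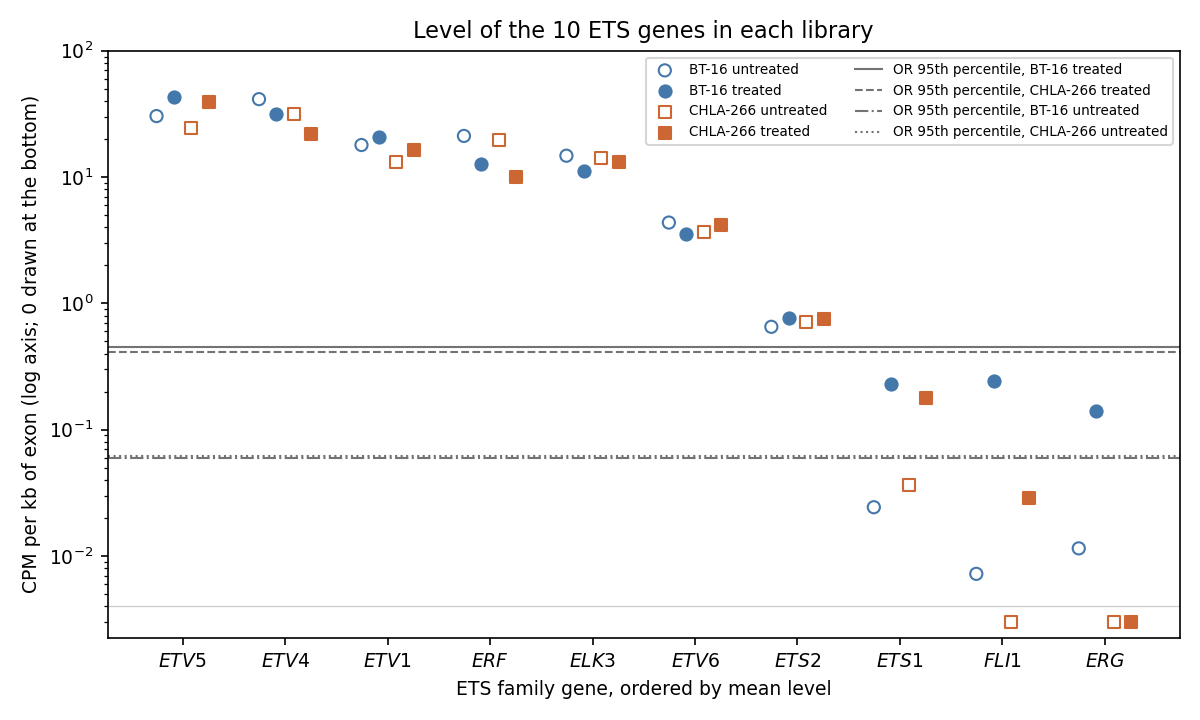
Level of the 10 ETS genes in CPM per kb of exon (y axis, log scale, with 0 drawn at the bottom) by gene (x axis), with 1 point per library. Horizontal lines mark the 95th percentile of 380 olfactory receptor (OR) genes in each library. *ETS1*, *FLI1*, and *ERG* lie below the line of their own library in every case, and the other 7 genes lie above it.

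After treatment, 3 of the 10 genes were upregulated (*ETS1*, *ETV5*, and *FLI1*), 1 was downregulated (*ERF*), and 6 did not pass (edgeR, adjusted *p* under 0.05). Over all 18066 genes tested, 35.2% passed, 16.1% up and 19.1% down. The 10 genes had a median log2 fold change of 0.21, and all genes one of 0.24. In CPM, the treated and untreated libraries did not overlap for 4 genes that were higher and 3 that were lower after treatment, while 40.2% and 32.3% of all genes showed such a separation. A block for the cell line added *ETV4* to the downregulated genes in edgeR but not in DESeq2.

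The PEA3 group was the most abundant part of the family, and in both cell lines *ETV5* was higher relative to *ETV4* after treatment. *ETV5* (chromosome 3, 186046314 to 186110318 on the minus strand of hg38) had 12103 counts before and 14319 after treatment in BT-16, and 8663 before and 11829 after treatment in CHLA-266. This corresponded to 175 and 248 CPM in BT-16, with 141 and 228 CPM in CHLA-266, so both treated libraries were above both untreated ones. Within the lines, it rose 1.41-fold in BT-16 and 1.62-fold in CHLA-266. Its log2 fold change was 0.59 ± 0.17 (SE, edgeR adjusted *p* = 0.0302). Without untreated CHLA-266 cells, the log2 fold change of *ETV5* was 0.44 and its adjusted *p* was 0.190 in edgeR, while the other 3 libraries could each be left out without loss of the call. *ETV4* (chromosome 17, 43527844 to 43579620, minus strand) had 10034 counts before and 6398 after treatment in BT-16, with 6816 and 4021 in CHLA-266. In CPM, these were 145 and 111 in BT-16, with 111 and 77.4 in CHLA-266, so treated BT-16 cells lay just below untreated CHLA-266 cells. The log2 fold change was -0.45 ± 0.22 (SE, edgeR adjusted *p* = 0.137), and -0.46 (SE 0.15, adjusted *p* = 0.0130) with the cell line as a block. DESeq2 with this block gave -0.39 (adjusted *p* = 0.0505), which did not pass. Without treated BT-16 cells, *ETV4* was called as well (log2 fold change -0.73, adjusted *p* = 0.00867 in edgeR). *ETV1* (chromosome 7, 13891229 to 13991425, minus strand) had 11869 counts before and 11560 after treatment in BT-16, with 7769 and 8170 in CHLA-266. After scaling, *ETV1* was higher in both lines. It went from 172 to 200 CPM in BT-16 (log2 ratio 0.22, interval of counting error 0.18 to 0.25). In CHLA-266, it went from 126 to 157 CPM (0.32, interval 0.27 to 0.36). Across the lines, the range before treatment (126 to 172 CPM) overlapped with that after it, which started at 157 CPM in CHLA-266. The log2 fold change of 0.26 did not pass (SE 0.20, edgeR adjusted *p* = 0.336).

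The ratio between PEA3 genes is free of the scaling of libraries. *ETV5* had 1.21 counts per *ETV4* count before and 2.24 after treatment in BT-16, against 1.27 and 2.94 in CHLA-266. The ratio was thus 1.86-fold higher in BT-16 (95% interval 1.78 to 1.93) and 2.31-fold higher in CHLA-266 (2.21 to 2.43). These intervals cover counting error only. Across the 4 libraries, the two-sided exact permutation *p* was 0.333, which is the smallest that 2 against 2 libraries can give. As a share of the summed PEA3 level per kb, *ETV4* went from 46.1% to 33.1% in BT-16 and from 45.6% to 28.3% in CHLA-266. *ETV5* went from 33.9% to 45.1% and from 35.3% to 50.7%. *ETV1* stayed between 19.1% and 21.9% in all libraries. The PEA3 genes together made up 48.9% and 55.7% of the summed level of all ETS genes in BT-16 before and after treatment, and 45.7% and 52.5% in CHLA-266.

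**Figure D2:**
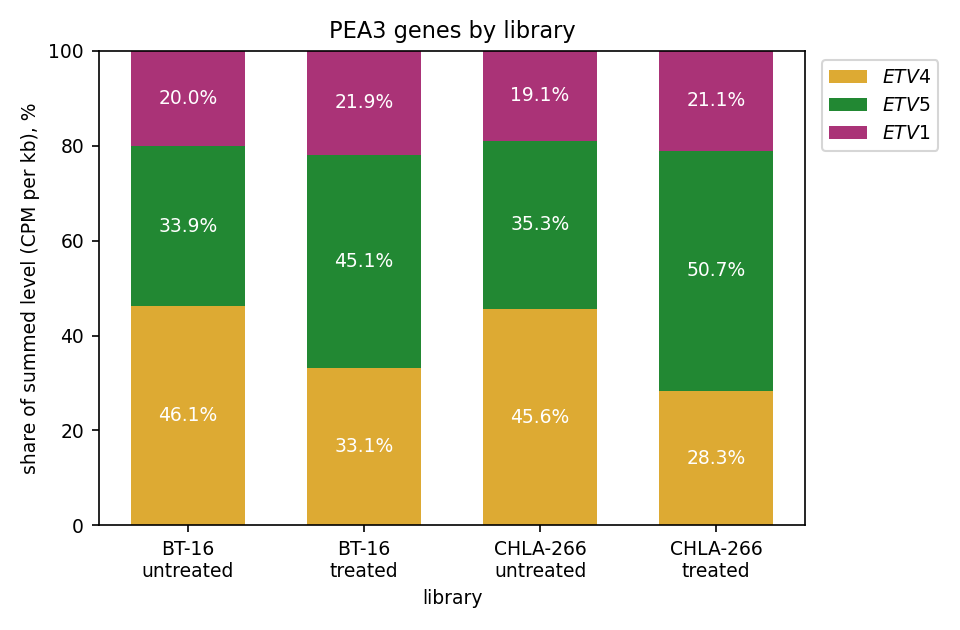
Share of *ETV4*, *ETV5*, and *ETV1* in their summed level per kb of exon (y axis, percent) in each of the 4 libraries (x axis). *ETV4* is the largest share in both untreated libraries (46.1% and 45.6%) and *ETV5* in both treated libraries (45.1% and 50.7%).

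*ETS1* was upregulated, but from and to a low level. *ETS1* (chromosome 11, 128458761 to 128587558, minus strand) had 12 counts before and 95 after treatment in BT-16, and 16 before and 66 after treatment in CHLA-266. Both treated libraries were above both untreated ones, and within the lines it was 9.12-fold higher in BT-16 (log2 interval of counting error 2.37 to 4.24) and 4.77-fold higher in CHLA-266 (1.48 to 3.18). In the log2 values that the authors deposited, this was 7.48 and 8.30 in BT-16, with 7.57 and 8.15 in CHLA-266, where a gene without counts has 7.09. Its log2 fold change of 2.74 (SE 0.80, edgeR adjusted *p* = 0.0289) was past the threshold in all 10 alternatives that kept the 4 libraries. With any 1 library left out, it was not. The adjusted *p* in edgeR was then 0.0814 without untreated and 0.117 without treated BT-16 cells, and 0.0513 without untreated and 0.0696 without treated CHLA-266 cells.

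The summed OR genes were higher after treatment as well. Per 100 OR counts of the same library, *ETS1* had 2.45 counts (BT-16) before and 1.75 after treatment, and 3.11 and 1.85 counts in CHLA-266. The treated ratio was 0.714 times the untreated one in BT-16 (exact conditional 95% interval 0.387 to 1.44) and 0.594 times in CHLA-266 (0.337 to 1.11), and both intervals include 1. In CPM per kb, *ETS1* lay at percentile 85.0 and 82.9 of the OR genes in BT-16 before and after treatment, and at percentile 91.1 and 84.5 in CHLA-266. The part of this low-level signal in the rise of *ETS1* was not tested.

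*ETS2* (chromosome 21, 38805183 to 38824955, plus strand), the closest paralog of *ETS1*, had 224 counts before and 222 after treatment in BT-16, with 219 and 196 in CHLA-266. The 4 libraries lay between 3.25 and 3.84 CPM. The log2 fold change of *ETS2* was 0.16 ± 0.39 (SE, edgeR adjusted *p* = 0.758). In all 4 libraries, *ETS2* had more counts than *ETS1*. Per kb of exon, the ratio of *ETS1* to *ETS2* was 0.0373 and 0.298 in BT-16 before and after treatment and 0.0509 and 0.234 in CHLA-266. This was a 7.99-fold (exact conditional 95% interval 4.2 to 16.4) and a 4.61-fold (2.53 to 8.80) higher ratio after treatment, with an exact permutation *p* of 0.333 across libraries. As *ETS2* counts changed little and the summed OR counts rose, *ETS2* relative to the OR genes was lower after treatment by arithmetic. It went from 45.7 to 4.08 counts per 100 OR counts in BT-16 and from 42.5 to 5.48 in CHLA-266.

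The genes whose pattern over the 4 libraries was most like that of *ETS1* were *DSCAM*, *HAS1*, *MYLK3*, *ITGAL*, and *APOL3*. Likeness was the distance of centered log2 CPM among 1965 genes of similar mean level, and it ranged from 0.165 for *DSCAM* to 0.216 for *APOL3*. Of these 1965 genes, 58 lay within 0.5 of *ETS1*, so the genes named are only the nearest of many. *DSCAM* had 8 counts before and 63 after treatment in BT-16, with 10 and 49 in CHLA-266. *ITGAL* had 12 counts before and 101 after treatment in BT-16, with 14 and 61 in CHLA-266. Among the other 9 chosen ETS genes, which were not matched to *ETS1* in level, the smallest distance to *ETS1* was 2.22, for *ETV5*.

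*FLI1* and *ERG* were nearly silent before treatment, and their signal after treatment came mainly from BT-16. *FLI1* (chromosome 11, 128686535 to 128813267, plus strand) is the neighbor of *ETS1*, with 99.0 kb between both genes, and its exons share 162 bases with the antisense gene *SENCR*. It had 4 counts before and 113 after treatment in BT-16, and 0 before and 12 after treatment in CHLA-266. In CHLA-266, *FLI1* was 4.74-fold higher after treatment when its 12 treated counts were set against the 3 counts that a count of 0 allows. This fold takes the treated counts as exact and is not a lower limit. The counting interval of the *FLI1* log2 ratio in CHLA-266 started at 1.72, and at 0.48 with halved counts. Its log2 fold change was 5.10 ± 1.60 (SE, edgeR adjusted *p* = 0.0369). Without treated BT-16 cells, it was 2.89 (adjusted *p* = 0.512 in edgeR), and without untreated CHLA-266 cells 4.19 (adjusted *p* = 0.0861). Without untreated BT-16 cells, it was 8.97 (adjusted *p* = 0.0265 in edgeR). With limma on the deposited log2 values, the adjusted *p* of *FLI1* was 0.0747. Per 100 OR counts, *FLI1* had 0.816 counts (BT-16) before and 2.08 after treatment, and the interval of this ratio (0.961 to 9.55) includes 1.

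*ERG* (chromosome 21, 38380027 to 38661780, minus strand) lies 143 kb from *ETS2*. It had 6 counts (BT-16) before and 61 after treatment, and 0 counts in both CHLA-266 libraries, which allows up to 0.0487 CPM in the untreated and 0.0577 CPM in the treated library. *ERG* did not pass the threshold (adjusted *p* = 0.244 in edgeR). Per 100 OR counts, it had 1.22 and 1.12 counts in BT-16 before and after treatment.

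Of the repressors, *ERF* was downregulated, and it was lower after treatment in both cell lines. *ERF* (chromosome 19, 42247569 to 42255128, minus strand) had 4774 counts before and 2405 after treatment in BT-16, and 3983 before and 1698 after treatment in CHLA-266. This was 69.2 and 41.6 CPM in BT-16 as against 64.7 and 32.7 CPM in CHLA-266, without overlap between the conditions. Its log2 fold change was -0.85 ± 0.18 (SE, edgeR adjusted *p* = 0.00789). *ERF* kept its call whichever of the 4 libraries was omitted. With upper-quartile normalization, which moved the median of all genes to 0.59, the log2 fold change of *ERF* was -0.50 (adjusted *p* = 0.0611 in edgeR). Free of scaling, *ETV5* had 2.54 counts per *ERF* count before and 5.95 after treatment in BT-16, against 2.17 and 6.97 in CHLA-266.

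*ELK3* (chromosome 12, 96194375 to 96269824, plus strand) had 4728 counts before and 2993 after treatment in BT-16, with 4075 and 3202 in CHLA-266. Its 68.5 and 66.2 CPM before treatment did not overlap with its 51.8 and 61.6 CPM after it, but the log2 fold change of -0.25 did not pass (SE 0.16, edgeR adjusted *p* = 0.254). It was 0.10 with upper-quartile normalization. *ETV6* (chromosome 12, 11649674 to 11895377, plus strand) had 2176 counts before and 1486 after treatment in BT-16, with 1630 and 1567 in CHLA-266. It went from 31.5 to 25.7 CPM in BT-16 but from 26.5 to 30.2 CPM in CHLA-266, and over both lines the log2 fold change was -0.06 ± 0.20 (SE, edgeR adjusted *p* = 0.836). Of the 3 repressors, *ERF* was therefore the only one past the threshold.

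**Figure D3:**
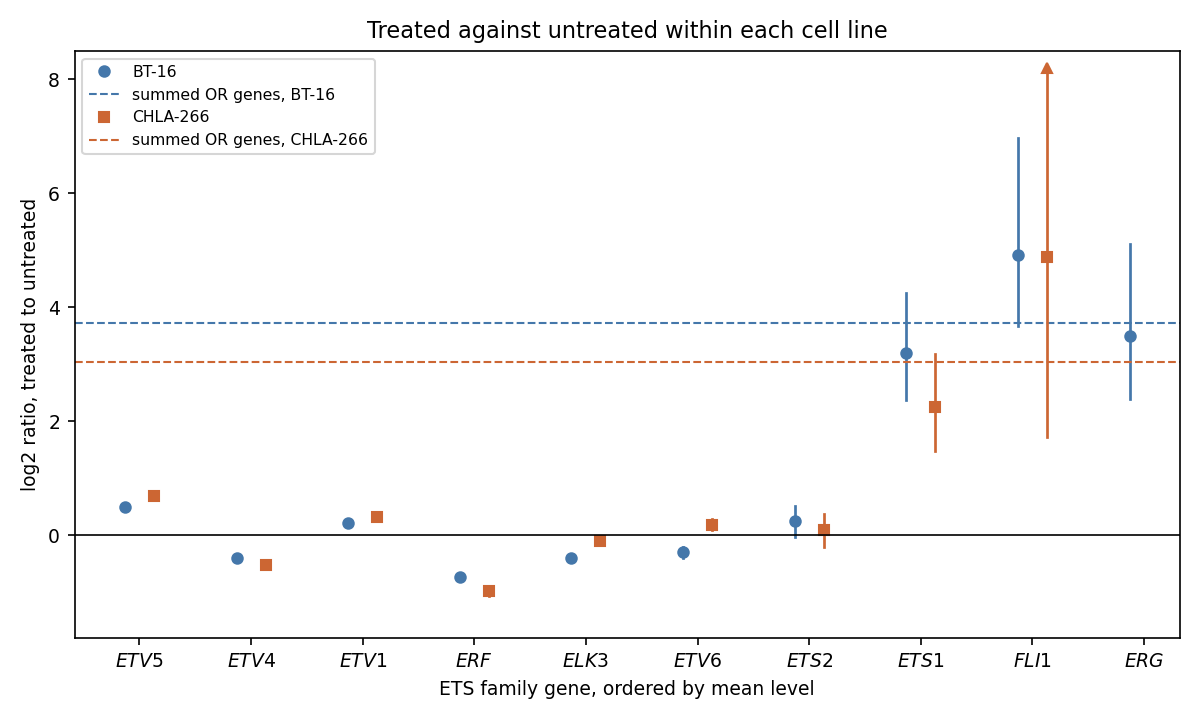
Log2 ratio of treated to untreated counts within each cell line (y axis) for the 10 genes (x axis), after TMM scaling with 0.5 counts added. Bars are exact Clopper-Pearson 95% intervals of counting error (an arrow marks an open end, and *ERG* had 0 counts in CHLA-266). Dashed lines show the summed OR genes (3.73 in BT-16 and 3.04 in CHLA-266), both within the *ETS1* interval of the same line.

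Levels were also compared between the cell lines in the fit with treatment and cell line. None of the 10 genes differed between CHLA-266 and BT-16 past the threshold in edgeR or DESeq2, against 2.3% of all genes in edgeR (0.836% higher and 1.46% lower in CHLA-266). At an unadjusted *p* under 0.05, the same 4 genes (*ERG*, *ETV1*, *ETV4*, and *FLI1*) were lower in CHLA-266 in both tools, while 1809 of all 18066 genes were under this *p* in edgeR and 1323 in DESeq2. *ETV4* had a log2 difference of -0.45 (SE 0.15, edgeR adjusted *p* = 0.126) and *ETV1* one of -0.40 (SE 0.14, adjusted *p* = 0.220). *ETV4* passed with the size factors of DESeq2 (adjusted *p* = 0.0379 in edgeR), and both genes passed with library totals alone. For *ETS1*, the log2 difference was 0.07 (SE 1.00). Whether the response to treatment differed between the lines could not be tested, with 1 library per line and condition.

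The rest of the family was read from a list of 19 further ETS genes, of which 17 were in the table. After treatment, 4 were upregulated (*SPIB*, *FEV*, *ERFL*, and *ELF5*), 1 was downregulated (*ELK4*), and 12 did not pass. Over all genes, 16.1% were upregulated and 19.1% downregulated. *ELK4*, which binds with SRF in ternary complexes, had 6608 counts before and 3623 after treatment in BT-16, with 7009 and 3716 in CHLA-266 (log2 fold change -0.64 ± 0.17 SE, edgeR adjusted *p* = 0.0188). The call of *ELK4* held in 7 of 10 alternatives with all libraries and was lost, for example, with upper-quartile normalization (-0.30, adjusted *p* = 0.177 in edgeR). It was also lost without treated BT-16 cells (-0.55, adjusted *p* = 0.0541 in edgeR) and without untreated CHLA-266 cells (-0.51, adjusted *p* = 0.112). With the cell line as a block, *ELF2* (log2 fold change -0.50, edgeR adjusted *p* = 0.0268) and *GABPA* (-0.41, adjusted *p* = 0.0379) were downregulated as well, and *ELF5* was lost (adjusted *p* = 0.0797). *FEV* went from 3 to 94 counts (BT-16) and from 0 to 26 (CHLA-266). Set against 3 counts per untreated library, its mean CPM over both lines was 23.1-fold higher (37.4-fold in BT-16 and 10.3-fold in CHLA-266, taken alone). *SPIB*, a factor of B cells, went from 2 to 88 counts (BT-16) and from 3 to 24 (CHLA-266). Set in the same way, its mean CPM over both lines was 21.5-fold higher (35.0-fold in BT-16 and 9.48-fold in CHLA-266). These folds take the treated counts as exact and are not lower limits. *FEV* itself had 3 counts in untreated BT-16 cells, and *SPIB* had 3 in untreated CHLA-266 cells. The counting intervals of the log2 ratios in BT-16 and CHLA-266 started at 3.63 and 2.96 for *FEV*. For *SPIB*, they started at 3.82 and 1.53. *ERFL* went from 12 to 74 counts (BT-16) and from 0 to 158 (CHLA-266), and it was the only one of these 4 upregulated genes above the 95th percentile of the OR genes in both treated libraries.

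The calls over the 27 ETS genes are given here by level, with no test between levels. Of the 11 genes with a mean above 10 CPM, 1 was upregulated (*ETV5*) and 2 were downregulated (*ERF* and *ELK4*) in edgeR. At an unadjusted *p* under 0.05 in edgeR, 4 of the 11 were lower, and 2 were downregulated in DESeq2. Of the 16 genes at or under 10 CPM, whose highest mean was 3.60 CPM, 6 were upregulated and 0 were downregulated in edgeR (0 also at an unadjusted *p* under 0.05 and 0 in DESeq2). Many of them, such as *FEV*, *SPIB*, *SPIC*, and *EHF*, had almost no counts before treatment, so a fall could hardly be called. No conclusion is drawn from the lack of downregulated genes at this level. This limit was chosen after the values were seen.

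**Figure D4:**
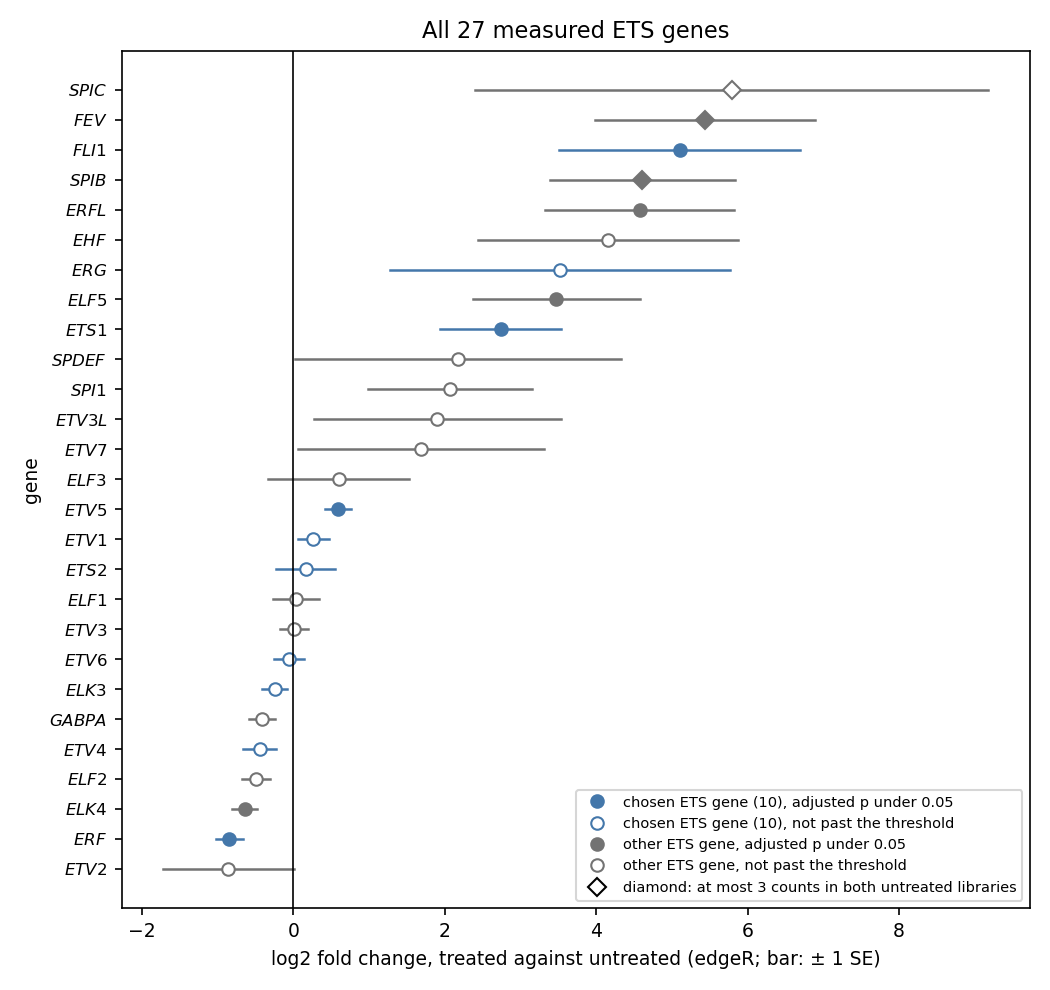
Log2 fold change of treated against untreated cells with a standard error derived from the edgeR test (x axis) for all 27 measured ETS genes (y axis). Filled symbols passed an adjusted *p* value under 0.05, blue marks the 10 chosen genes, and diamonds mark genes with at most 3 counts in both untreated libraries, whose fitted values are not bounds. Of the upregulated genes, *ETV5* has the smallest fold change (0.59) and a short error bar, and the others carry wide ones.

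Among 20 partners and regulators of ETS factors, 2 were upregulated and 7 downregulated, against 16.1% and 19.1% of all genes. Their median log2 fold change was -0.34, against 0.24 for all genes. *CBFB*, the partner of RUNX factors that bind DNA next to ETS1, fell from 4415 to 1419 counts (BT-16) and from 4856 to 1552 (CHLA-266) (log2 fold change -1.39 ± 0.19 SE, edgeR adjusted *p* = 0.000999). The corepressor *SIN3A*, which ETV6 recruits, had a log2 fold change of -0.95 (adjusted *p* = 0.00270 in edgeR), and *NCOR1* one of -0.62 (adjusted *p* = 0.0169). *SRF*, the partner of ELK3 and ELK4, had a log2 fold change of -0.95 (adjusted *p* = 0.0186 in edgeR). *MAP2K2*, a kinase of the ERK cascade, rose from 26235 to 42401 counts (BT-16) and from 24467 to 46900 (CHLA-266) (log2 fold change 1.07 ± 0.18 SE, edgeR adjusted *p* = 0.00259). *SP100*, the other upregulated gene of this list, rose from 4 to 95 counts (BT-16) and from 6 to 59 (CHLA-266). Its log2 fold change was 4.13 (SE 0.93, edgeR adjusted *p* = 0.0104). *SP100* was not above the 95th percentile of the OR genes in both treated libraries. The downregulated calls depend on the scaling, since upper-quartile normalization left 2 of the 7. *CIC*, the repressor of PEA3 genes, had a log2 fold change of 0.01 (SE 0.17).

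Of 17 genes that report ERK output, many of which ETS factors bind, 8 were upregulated and 3 downregulated (16.1% and 19.1% of all genes). Their median log2 fold change was 0.54 (0.24 for all genes). *DUSP4*, a phosphatase that feeds back on ERK, rose from 1309 to 4258 counts (BT-16) and from 655 to 5222 (CHLA-266) (log2 fold change 2.55 ± 0.29 SE, edgeR adjusted *p* = 0.000407). The feedback inhibitors *SPRY4* (1.18, adjusted *p* = 0.00110 in edgeR) and *SPRED2* (1.00, adjusted *p* = 0.00207) and the cyclin *CCND1* (1.12, adjusted *p* = 0.00698) were upregulated with *ETV5*. The list did not move one way, and another feedback inhibitor, *SPRY2*, was downregulated (-0.51, adjusted *p* = 0.0328 in edgeR), as was *MYC*. *SPRY1* (-0.38, adjusted *p* = 0.206 in edgeR) and *DUSP6* (-0.53, adjusted *p* = 0.144) did not pass. *EGR1*, an immediate early gene that SRF and ELK factors switch on, fell from 11311 to 1022 counts (BT-16) and from 4862 to 537 (CHLA-266) (log2 fold change -3.12 ± 0.37 SE, edgeR adjusted *p* = 0.000552). Of the 8 upregulated genes, 7 (*EPHA4* not) lay above the 95th percentile of the OR genes in both treated libraries.

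Among 19 genes described as ETS targets in invasion and vessels, 9 were upregulated and 2 downregulated, against 16.1% and 19.1% of all genes. Their median log2 fold change was 4.28, and 3.01 with 7 genes of at most 3 counts before treatment set against 3 counts per untreated library. Over all genes, these medians were 0.24 and 0.19. *SPP1*, which encodes osteopontin, had the most counts of these genes after treatment and went from 3633 to 22130 in BT-16 and from 619 to 12608 in CHLA-266 (log2 fold change 3.32 ± 0.64 SE, edgeR adjusted *p* = 0.00534). *TERT*, the catalytic subunit of telomerase, fell from 711 to 121 counts (BT-16) and from 857 to 121 (CHLA-266) (log2 fold change -2.45 ± 0.33 SE, edgeR adjusted *p* = 0.00103). *ZEB2*, a transcription factor of mesenchymal transition, *FLT1*, and *KDR*, which encode receptors of vascular endothelial growth factor, were upregulated at 32 to 192 counts in the treated libraries. Of the 9 upregulated genes, 2 (*SPP1* and *PLAUR*) lay above the 95th percentile of the OR genes in both treated libraries.

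Cell types that use *ETS1*, *ERG*, or *FLI1* were checked by marker lists. Of 11 endothelial, 12 lymphoid, and 10 macrophage markers, 5, 4, and 4 were upregulated after treatment in edgeR, against 16.1% of all genes. Downregulated were 0 in edgeR, against 19.1% of all genes, and 1 endothelial marker at an unadjusted *p* under 0.05 and in DESeq2. None of these 13 calls lay above the 95th percentile of the OR genes in both treated libraries. The summed level of the endothelial list was 8.59 and 10.2 CPM in untreated and 15.0 and 20.2 CPM in treated libraries. For the lymphoid list it was 4.22 and 8.64 CPM against 7.35 and 16, and for the macrophage list 2.52 and 3.27 CPM against 9.38 and 10.0. *EMCN* was at 0 in 3 libraries, and *CD3E* had 43 counts in treated BT-16 cells and 0 elsewhere. The libraries came from cultures of established cell lines, not from tissue. The part of these genes in the rise of *ETS1* and *FLI1* was not tested, and bulk RNA does not show whether a signal came from few cells or many.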

How the data were processed

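RNA-seq covered untreated and treated cells of 2 established cell lines. According to the methods, the authors trimmed paired reads, aligned them to hg38 with STAR, counted them per gene, and removed repeated genes and genes of the sex chromosomes. The deposited values are estimated counts, not normalized, for 18449 gene symbols, and 5 values that were not whole were rounded. The deposited log2 values come from the variance-stabilizing transformation of DESeq2 (17553 genes) and served for 1 alternative with limma. The submitters' processing notes also name bcl2fastq 2.20. Strand settings and the counting of read pairs are not given in the sources used here, and low counts were mostly even (20.5% to 34.2% odd among counts from 1 to 20), so counting intervals would be too narrow if a pair counted as 2 reads.

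The 10 genes and all lists were chosen with earlier results of these data known. The main test of treatment was the quasi-likelihood test of edgeR 4.0.16 (R 4.3.3; TMM, Benjamini-Hochberg over 18066 genes with a total above 0), with condition as the only term. Each SE given with an edgeR result is the absolute log2 fold change divided by the square root of the F statistic of its test. It is thus derived from the test and not estimated apart from it. Libraries are paired because they share a cell line. As a check, the deviations of both libraries of a line from the condition means correlated at 0.397 across 11288 genes. Alternatives included a block for the cell line, DESeq2 1.42.0 in both designs, other scalings and filters, limma 3.58.1, halved counts, and each library left out in turn. Within a line, log2 ratios had 0.5 counts added and exact Clopper-Pearson 95% intervals. The interval of a ratio between 2 genes is exact and conditional, or a normal approximation of the log ratio for genes with many counts. Levels are CPM per kb of merged exons in GENCODE 44 (18357 symbols). All 10 genes are named; of other lists, up to 5 called genes by adjusted *p* and others where singled out after their values were seen. Fits were tested on simulated counts with 200 changed genes. The changed genes were drawn above a low-count limit and every gene had the same dispersion, so the genes with the fewest counts were not covered. On the same strand, exons of *ETV5* share 164 bases with *DGKG*, and those of *ERF* 181 bases with another gene model.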

Additional observations from a re-analysis of the deposited data

Results flagged for a closer look

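*ETV6* and *ELF1* moved in opposite directions in the 2 cell lines, beyond counting error also when counts were halved. The difference was not tested, because each line had 1 library per condition. The treated-to-untreated log2 ratio of *ETV6* was -0.30 in BT-16 (95% interval -0.39 to -0.20) and 0.19 in CHLA-266 (0.09 to 0.29). *ELF1*, an ETS activator outside the 10 genes, had 7640 and 5405 counts in BT-16 (log2 ratio -0.24) and 3312 and 3903 counts in CHLA-266 (0.48). *ELF1* was lower in CHLA-266 over both conditions (log2 difference -0.68, SE 0.16, edgeR adjusted *p* = 0.0189). The opposite signs depend on the scaling: with library totals alone, the ratio in BT-16 was -0.0058 for *ETV6* and 0.05 for *ELF1*. Groups of 2 libraries were too small to look for outlying libraries.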

How the results depend on the processing

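*ETS1* was past the threshold in edgeR, DESeq2, and limma in every alternative with all 4 libraries (adjusted *p* from 0.00576 to 0.0404), and with 1 library left out its log2 fold change ranged from 2.48 to 3.05 without a call. The number of upregulated genes among the 10 ranged from 0 (without untreated CHLA-266 cells) to 2 with 1 library left out, and that of downregulated genes from 1 to 2. Downregulated were 2 genes with the cell line as a replicate block in edgeR (1 in DESeq2) and 0 with upper-quartile normalization, which added *ETV1* to the upregulated ones (adjusted *p* = 0.0419 in edgeR). The filter on 10 counts in every library left out *ERG* and *FLI1*. Apart from *ETV4* in edgeR, the block changed no call among the 10. With upper-quartile normalization, 1895 of all genes were downregulated, against 3454 with TMM, and 69.7% of all calls were upregulated, against 45.7%; with library totals the share was 61.0%. Of the 10 ETS genes, 1 differed between the cell lines in edgeR with the size factors of DESeq2 and 2 with library totals. Over all 18066 genes, 272 were higher and 408 lower in CHLA-266 with these size factors, and 212 and 477 with library totals.

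Reversed signs were seen in genes that were not called. The log2 fold change of *ETV6* was 0.0127 with DESeq2 and 0.0136 with its block, 0.0128 with its size factors, 0.0120 with limma on the log2 values, 0.13 with at least 10 counts in every library, 0.29 with upper-quartile normalization, 0.17 with library totals, and from -0.18 to 0.0768 with 1 library left out. *ELK3* reversed to 0.10 with upper-quartile normalization, and within CHLA-266 to 0.0613 with library totals. *ERG* ranged from -4.48 to 7.92 with 1 library left out. The cause was not tested. Depth limits *ETS1*, *FLI1*, and *ERG*, where 3 counts amount to 0.0435 to 0.0577 CPM.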
